A study of Homo sapiens with 14 samples.

Results

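Of the genes described here, 5 encode the subunits of the transcription factor NF-kB (NFKB1, NFKB2, REL, RELA and RELB). The other 5 encode proteins grouped as its feedback inhibitors (NFKBIA, NFKBIE, NFKBIZ, TNFAIP3 and BIRC3). The group name is loose, because NFKBIZ helps to activate a subset of targets and BIRC3 acts at TNF receptor complexes. All 10, of the 60683 genes counted in the series, were chosen by their GENCODE symbols. A549, a lung cancer line grown in RPMI, was sequenced untreated and under 4 treatments. These were palbociclib at 2 μM, indisulam at 0.5 μM and their combination, each for 10 days, and PF-06873600 at 0.5 μM for 7 days. SUM159, a triple negative breast cancer line grown in DMEM/F12 with insulin and hydrocortisone, was sequenced untreated and after 7 days with 0.5 μM PF-06873600. Palbociclib inhibits the cell cycle kinases CDK4 and CDK6, PF-06873600 inhibits these and CDK2, and indisulam leads to degradation of the splicing factor RBM39. The study asked whether loss of CDK2 activity together with CDK4 and CDK6 inhibition makes cancer cells senescent. Each of the 7 groups had 2 libraries, and how long the untreated cells were grown is not given in the sources used here.

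NF-kB dimers are held in the cytoplasm by inhibitors of the IkB family. Signals from TNF receptors, interleukin-1 receptors and Toll-like receptors lead to phosphorylation and destruction of the inhibitors, and the freed dimers enter the nucleus and switch on inflammatory genes. RELA with the processed product of NFKB1 carries the fast, classical response, and RELB with the processed product of NFKB2 the slower alternative response. Several subunit and inhibitor genes are themselves targets, so that the response builds its own brake. In senescent cells NF-kB is a known driver of the secreted inflammatory factors.

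Because these genes are known targets, their promoters were searched for the kB consensus, the 10-base motif that NF-kB dimers bind. RefSeq promoter windows on GRCh38.p14, which run from 250 bases before to 50 bases after a start site, were found for 8 of the 10 genes, in 13 windows. RELB and NFKBIE had no window. The motif was searched on both strands, and matches that overlap were joined. It was present in 9 of the 13 windows and in 7 of the 8 genes (87.5%), all except RELA, against 5.91% of all 35116 windows and 7.09% of the 27305 genes with a window. With any base allowed at position 6 of the motif it was in 11.3% of all windows, and the count for these genes stayed at 9 windows. A match of this kind is a run of letters and does not show that the factor binds there.

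The stretches around the matches are shown for the genes whose RNA is followed most closely in the results, 5′ to 3′ on the strand of the gene, with the matches in capitals. TNFAIP3 has a pair of matches that start 67 and 55 bases before its start site (chr6:137867188-137867217, plus strand), both lying ahead of the first base that GENCODE release 44 gives for the gene:
TNFAIP3: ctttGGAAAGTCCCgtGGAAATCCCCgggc
BIRC3 has matches 199 bases (chr11:102317260-102317319, plus strand) and 135 bases (chr11:102317324-102317383) before the start, both upstream of the annotated gene:
BIRC3 first: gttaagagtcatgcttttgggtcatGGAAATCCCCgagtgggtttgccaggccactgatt
BIRC3 second: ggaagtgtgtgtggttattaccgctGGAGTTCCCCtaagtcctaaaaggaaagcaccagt
NFKBIA has a match 81 bases before the start (chr14:35404796-35404855, minus strand), upstream of the annotated gene:
NFKBIA: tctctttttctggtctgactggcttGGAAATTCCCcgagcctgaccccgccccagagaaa
The NFKBIZ match lies 223 bases before the first of its start sites (chr3:101827757-101827786, plus strand), where an exon of the neighbouring gene NXPE3 also lies, and another, not printed, lies 239 bases before a later start site, inside an exon of NFKBIZ:
NFKBIZ: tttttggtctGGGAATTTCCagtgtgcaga
NFKB2 has 4 matched stretches. Those 176 and 21 bases before the third of its start sites, in an intron and an exon, and that 78 bases before its second, in an exon, are not printed, and the stretch 107 bases before the second, also inside an exon, (chr10:102394462-102394490, plus strand) holds 2 overlapping matches that were joined:
NFKB2: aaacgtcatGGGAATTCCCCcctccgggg
REL and NFKB1 also carry 1 matched stretch each. That of REL (chr2:60881518-60881546, plus strand, 47 bases before the start and within an annotated exon of REL) holds 2 overlapping matches that were joined. That of NFKB1 (chr4:102501300-102501329, plus strand) is 1 match 49 bases before the start, where an exon of another gene also lies:
REL: gtcagccgcGGGAAATTCCCctcccgcca
NFKB1: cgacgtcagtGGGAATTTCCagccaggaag

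Expression is given as CPM, a gene's count scaled by the total of all gene counts in its library. Totals ran from 13060374 to 21149256 counts, and the smallest level taken as visible, 3 counts, was 0.142 to 0.23 CPM. All 10 genes lay above it in all 14 libraries and passed the filter on low counts in each of the 3 models, in which 15780 (A549), 15055 (SUM159) and 16707 (both lines) genes were tested. The series was run in technical duplicates per its design text, so the p-values measure the spread between technical duplicates and not between independent cultures. No duplicate pair agreed within sampling noise (chi-square per degree of freedom 1.61 to 9.57), and the untreated A549 pair differed most. A549 libraries carried the epithelial keratins KRT8 (1908 to 5680 CPM) and KRT18. The lung lineage genes NKX2-1, SFTPB and SFTPC were at most 0.451, 0 and 0.371 CPM in A549, and NAPSA was at 0.533 to 3.69 CPM. The sum of these 4 lung lineage genes was 0.733 to 1.09 CPM untreated and highest with the combination, at 3.99 to 4.18 CPM. A549 libraries also carried the mesenchymal genes VIM (628.3 to 1792 CPM) and FN1 (1501 to 2247 CPM). SUM159 libraries carried VIM (3609 to 4318 CPM), with CDH1, KRT19 and EPCAM at or below 0.844 CPM. Their KRT8 was at 259.8 to 432.5 CPM and their KRT18 at 166.4 to 320.6. Of the breast luminal and receptor genes in SUM159, the oestrogen receptor ESR1 was at or below 0.662 CPM and PGR at 0. The other genes of that list were present, ERBB2 at 118.2 to 130.2 CPM and GATA3 at 5.89 to 6.84. In a line, a lower level in each cell and fewer cells with the transcript cannot be told apart.

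Before any treatment 1 of the 5 subunit genes and all 5 inhibitor genes differed between the lines, though the NFKBIA call was fragile. Most genes differed, as 42.8% of all 16707 genes tested were higher in SUM159 and 36.4% lower. NFKB2 was at 48.7 and 38.5 CPM in the untreated A549 libraries and at 50.8 and 50.1 in SUM159, and RELA was at 108.8 and 92.7 in A549 and at 108.1 and 100.02 in SUM159. Neither difference passed the test, with log2 differences (SUM159 minus A549) of 0.21 ± 0.10 (SE) for NFKB2 and 0.05 for RELA (95% interval -0.12 to 0.21). REL and RELB did not pass either, at 0.18 ± 0.16 and -0.24 ± 0.13. These values moved with the untreated A549 pair, as NFKB2 and RELA were called higher without its replicate 1 (0.39 and 0.17), and REL was called higher and RELB lower without its replicate 2 (0.49 and -0.34). NFKB2 was also called higher with no filter on low counts (0.21, adjusted p = 0.0364). NFKB1 was at 46.8 and 46.7 CPM in A549 and 103.7 and 99.4 in SUM159, 2.17-fold higher (adjusted p = 9.31e-10).

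TNFAIP3, a ubiquitin-editing enzyme that shuts off signalling to the IkB kinase, was at 2.17 and 2.27 CPM in untreated A549, from 32 and 34 counts, and at 23.1 and 26.4 CPM in SUM159. That is an 11.1-fold difference (log2 3.47 ± 0.13, adjusted p = 5.01e-12), the widest of the 10 genes. BIRC3, a ubiquitin ligase that acts at TNF receptor complexes and keeps the alternative pathway low, was 2.99-fold higher in SUM159, at 98.1 and 92.9 CPM against 31.7 and 32.1. NFKBIE, an IkB protein, was 2.53-fold higher at 13.4 and 13.1 against 5.91 and 4.53 CPM. NFKBIZ, an IkB-like nuclear protein that helps to activate a subset of targets, went the other way at 4.46 and 6.33 CPM in SUM159 against 20.7 and 19.7 in A549, 0.266-fold (adjusted p = 6.81e-09). In all, 5 of the 10 genes were higher in SUM159 and 1 lower, where 42.8% of all 16707 genes tested were higher and 36.4% lower. The fifth higher gene was NFKBIA, the main IkB protein, with a log2 difference of only 0.19 ± 0.07, and its call was lost with DESeq2 (0.08, adjusted p = 0.451), with the untreated libraries alone (0.19, adjusted p = 0.0681) and without untreated SUM159 replicate 1 (0.19, adjusted p = 0.0504). With the size factors of DESeq2 the median of all genes was 0.00 and with library totals 0.12, so differences between the lines are read against that shift. Cell line, medium and additives differed together and cannot be told apart.

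**Figure D1:**
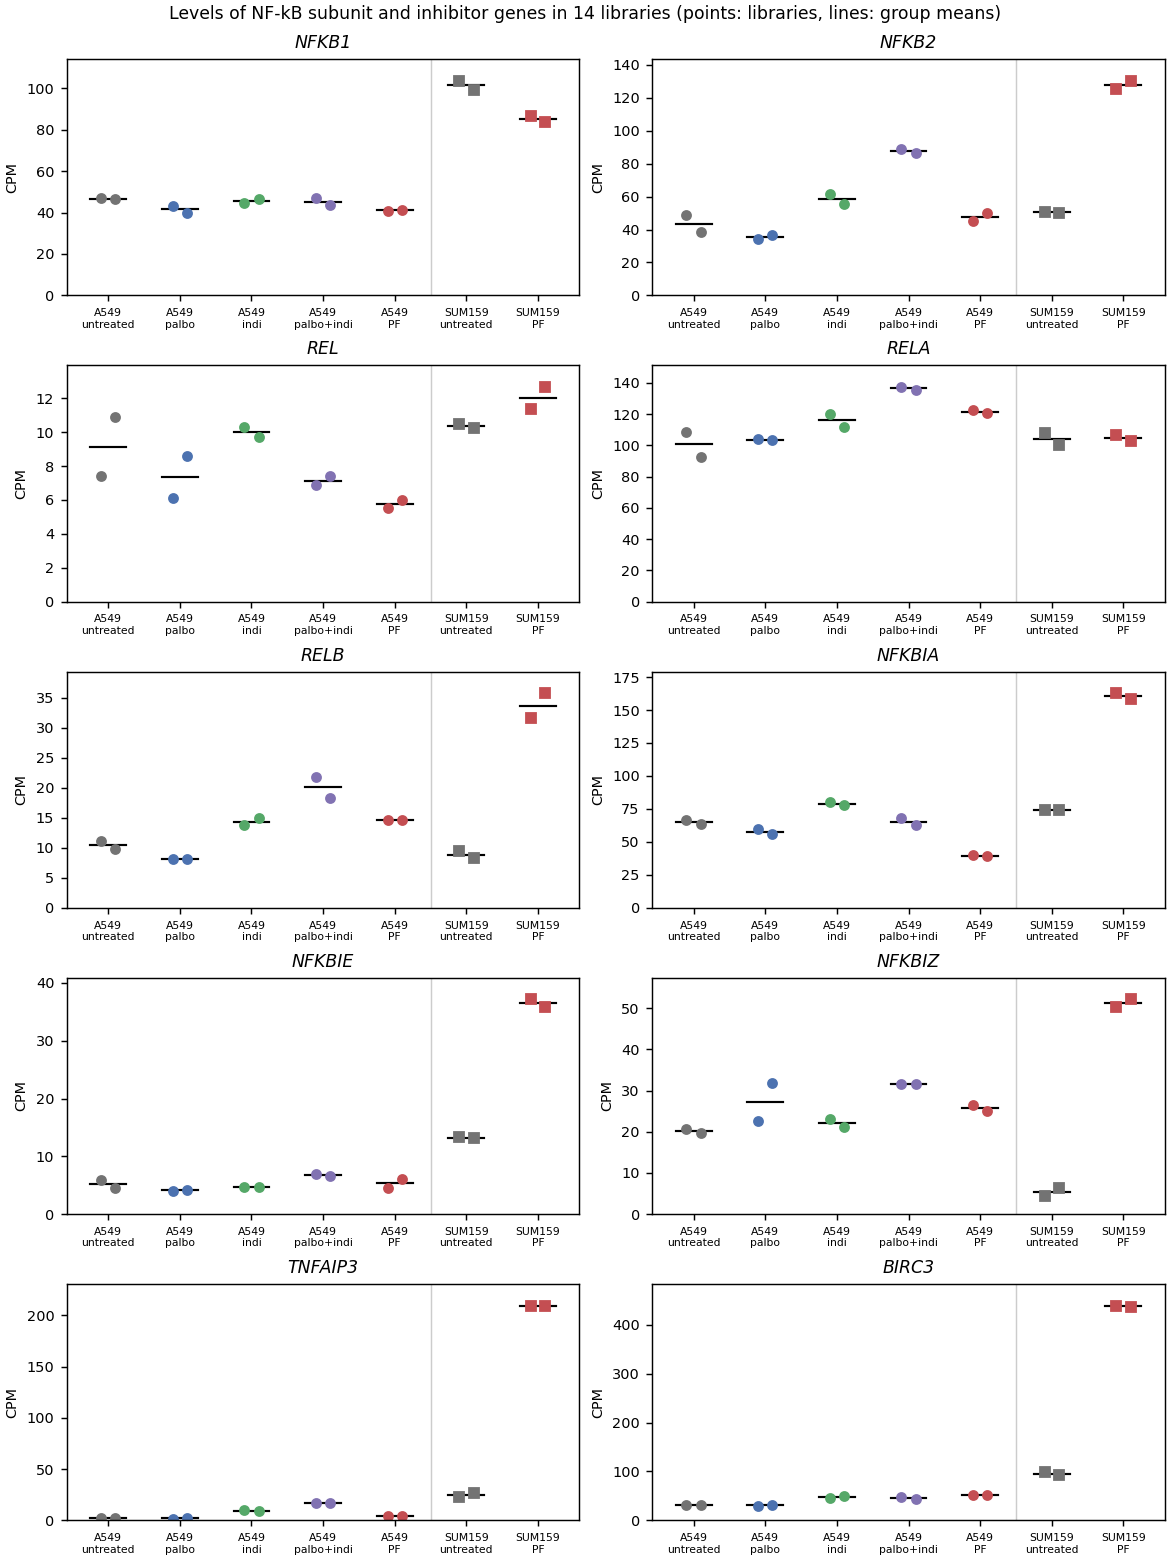
CPM (linear axis from 0) of the 10 genes in the 14 libraries, with points for libraries (circles A549, squares SUM159) and lines for the means of 2. Palbo is palbociclib, indi is indisulam and PF is PF-06873600. TNFAIP3 reached 208.6 and 209.5 CPM in SUM159 with PF-06873600, against at most 17.0 in any A549 library.

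With palbociclib alone NFKBIZ was the only one of the 10 to pass the test, at 22.5 and 31.9 CPM against 20.7 and 19.7 in untreated cells, 1.35-fold higher (log2 0.44 ± 0.13, adjusted p = 0.0340), and none was called lower. Among all 15780 genes 8.3% were higher and 7.4% lower. The NFKBIZ call rested on single libraries, since it was lost without palbociclib replicate 2 (log2 0.15, adjusted p = 0.493) and without untreated replicate 2 (0.41, adjusted p = 0.0661). The other 9 genes had log2 changes between -0.36 (RELB) and 0.04 (RELA). NFKB2 and RELB were at 34.4 and 36.4 CPM and at 8.09 and 8.18 CPM, below both untreated libraries (48.7 and 38.5, and 11.2 and 9.73), with adjusted p of 0.0696 and 0.0823. Without untreated replicate 2 both were called lower, NFKB2 at -0.46 and RELB at -0.46. NFKB2 was also called lower with no filter on low counts (-0.30, adjusted p = 0.0149) and with crossed replicate numbers as a block, chosen after seeing the data (-0.30, adjusted p = 0.0317). REL was also called lower without untreated replicate 1 (-0.55, adjusted p = 0.0356) and stood at 0.00 without untreated replicate 2.

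Indisulam alone raised 6 of the 10 genes and lowered none, where 28% of all genes were higher and 17.5% lower. TNFAIP3 went from 2.17 and 2.27 CPM to 10.0 and 9.05, 4.28-fold (log2 2.10 ± 0.16, adjusted p = 1.12e-07), and the groups lay far apart. BIRC3 rose 1.49-fold to 44.9 and 49.9 CPM (adjusted p = 2.87e-05). NFKB2 rose 1.34-fold to 61.6 and 55.3 CPM and RELB 1.37-fold to 13.8 and 14.9. NFKBIA rose 1.22-fold to 79.9 and 78.2 CPM against 66.6 and 63.5, the only A549 treatment in which it was called higher than in untreated cells. RELA was called at a log2 change of 0.21 ± 0.07 (120.5 and 111.9 CPM), a call lost in 5 of 10 alternative analyses, among them without indisulam replicate 1 and without untreated replicate 2 (0.15 and 0.10). RELB was lost without indisulam replicate 2 (0.40, adjusted p = 0.0588), and DESeq2 called only 3 of the 6, NFKB2, TNFAIP3 and BIRC3. Over all genes 61.6% of the calls with indisulam were higher when libraries were scaled by their totals and 50.4% with TMM factors, and the median of all genes was 0.08 and 0.00. NFKB1 (log2 -0.04 ± 0.07), REL (0.13 ± 0.18), NFKBIE (-0.16 ± 0.19) and NFKBIZ (0.13 ± 0.13) did not pass. The summed level of 4 blood cell markers moved with the A549 treatments, at 6.60 to 7.41 CPM untreated, 8.12 to 9.05 with palbociclib, 13.1 to 15.7 with indisulam, 9.65 to 10.5 with the combination and 11.6 to 11.9 with PF-06873600. Its largest part was CD14 (4.07 to 5.03 CPM untreated and 11.1 to 12.03 with indisulam). LYZ was next, at 2.38 to 2.40 CPM untreated, at most 3.63 with indisulam and 4.204 to 4.90 with PF-06873600. CD3E was at 0 and PTPRC at or below 0.557 CPM. The part of this summed level in the results was not tested.

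Both drugs together gave the highest A549 levels of TNFAIP3, NFKB2 and RELB. TNFAIP3 stood at 16.7 and 17.0 CPM, 7.55-fold above untreated cells (log2 2.92 ± 0.15, adjusted p = 3.75e-10). NFKB2 stood at 88.9 and 86.4 CPM, 2.01-fold (adjusted p = 4.15e-07), and its partner RELB at 21.8 and 18.3 CPM, 1.91-fold (adjusted p = 6.80e-06), so both genes of the alternative pathway dimer rose together. RELA rose 1.36-fold to 137.6 and 135.8 CPM, above every other A549 library. BIRC3 at 46.9 and 44.7 CPM (1.43-fold) and NFKBIZ at 31.5 in both libraries (1.56-fold) completed the 6 genes called higher, and none was lower, with 35.1% of all genes higher and 30% lower. NFKBIA was at 67.9 and 63.0 CPM, within reach of the untreated 66.6 and 63.5, with a 95% interval of the log2 change from -0.14 to 0.15. NFKB1 had an interval from -0.20 to 0.11. REL (-0.36 ± 0.19) and NFKBIE (0.37 ± 0.18) did not pass, though each was called without untreated replicate 1 (-0.60 and 0.57).

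**Figure D2:**
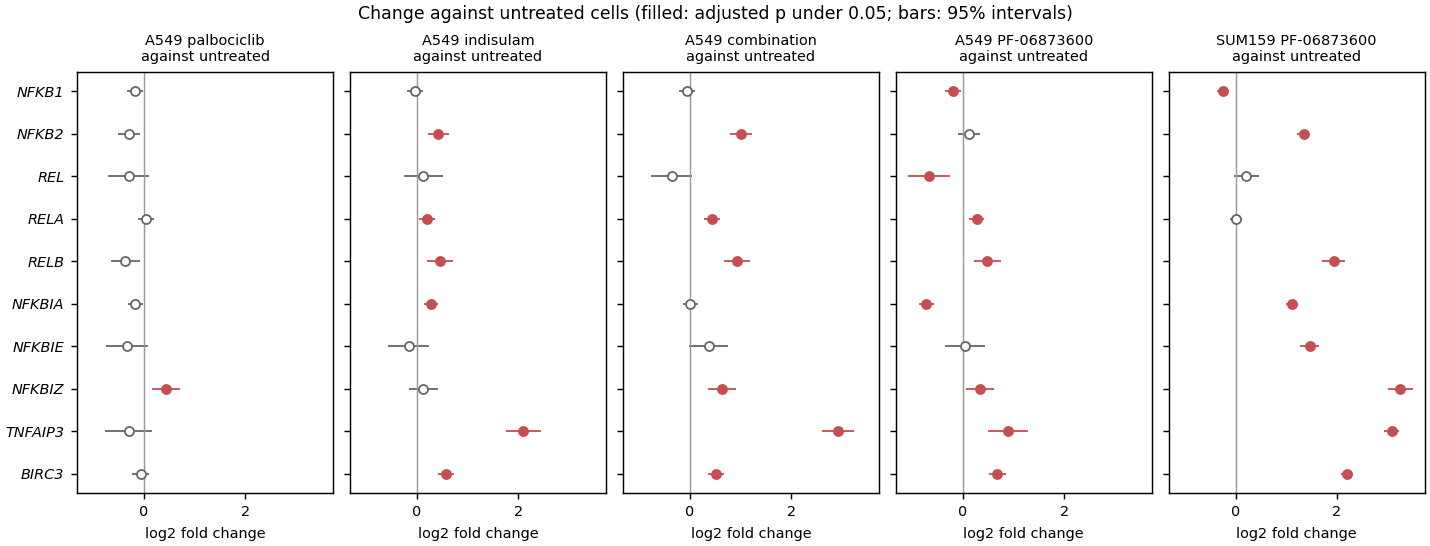
Log2 fold changes against untreated cells of the same line (points) with 95% intervals (bars), filled where the adjusted p was under 0.05, for the 10 genes in 5 comparisons on a shared axis. Changes in A549 ran from -0.71 (NFKBIA with PF-06873600) to 2.92 (TNFAIP3 with the combination), and in SUM159 from -0.26 (NFKB1) to 3.25 (NFKBIZ).

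Whether adding the second drug changed the level was tested directly. Indisulam added to palbociclib raised 7 of the 10 genes and lowered none, where 33.5% of all genes were higher and 26.9% lower. TNFAIP3 was 9.28-fold higher (16.7 and 17.0 CPM against 1.71 and 1.89), NFKB2 2.47-fold and RELB 2.46-fold. RELA (1.32-fold), NFKBIE (1.64-fold), BIRC3 (1.502-fold) and NFKBIA (1.13-fold) made up the rest. The NFKBIA call at a log2 difference of 0.18 was lost in 5 of 10 alternatives, among them without palbociclib replicate 2 and without combination replicate 1 (0.13 and 0.12). NFKBIZ was not called (0.20 ± 0.12), but it was without palbociclib replicate 2, at 0.49 (adjusted p = 0.00258).

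Palbociclib added to indisulam raised 6 genes and lowered 2, where 22% of all genes were higher and 23.9% lower. TNFAIP3 rose 1.77-fold from 10.0 and 9.05 to 16.7 and 17.0 CPM (adjusted p = 5.43e-05), NFKB2 1.499-fold and NFKBIZ 1.42-fold. RELB (1.39-fold), RELA (1.18-fold) and NFKBIE (1.45-fold) were also called. NFKBIA fell from 79.9 and 78.2 to 67.9 and 63.0 CPM, 0.827-fold (adjusted p = 0.00398). REL was 0.715-fold (6.88 and 7.40 against 10.3 and 9.71 CPM, adjusted p = 0.0483). These smaller calls were fragile. REL and NFKBIE were lost without any 1 of the 4 libraries and with DESeq2, RELA without indisulam replicate 2 or either combination library (log2 0.18 to 0.24), RELB without combination replicate 1 (0.35) and NFKBIA without combination replicate 2 (-0.22). The number called higher fell to 3 without combination replicate 1 and the number called lower to 0 without combination replicate 2.

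For 4 genes the combination exceeded the sum of the separate drug effects on the log2 scale, and for none did it fall short, where 10.7% of all genes had a positive and 14.5% a negative interaction. TNFAIP3 changed by -0.30 with palbociclib and by 2.10 with indisulam, a sum of 1.80, against 2.92 with both, an interaction of 1.12 ± 0.25 (adjusted p = 0.00402). NFKB2 changed by -0.30 and 0.42 and by 1.01 with both, an interaction of 0.88 ± 0.14 (adjusted p = 3.36e-04). RELB changed by -0.36 and 0.46 and by 0.93 with both, an interaction of 0.84 ± 0.17 (adjusted p = 0.00259). In these 3 genes palbociclib alone gave a value below 0 that was not called, and in its presence indisulam gave its larger rise. The call for NFKBIE (0.87 ± 0.26, adjusted p = 0.0254) was lost in 8 of 13 alternatives, without 7 of the 8 libraries in turn and with DESeq2, though its lowest value over these was 0.67. BIRC3 was close to additive, with an interaction of 0.02 and a 95% interval from -0.22 to 0.25. The intervals for NFKBIA (-0.31 to 0.10) and NFKBIZ (-0.32 to 0.46) also spanned 0. RELA (0.19) was called only without untreated replicate 2, at 0.30 (adjusted p = 0.00633).

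**Figure D3:**
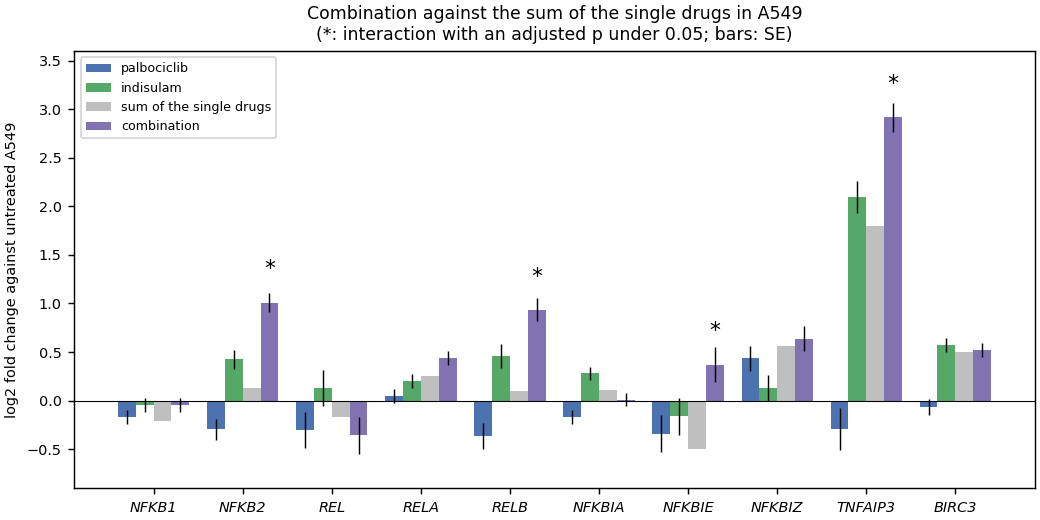
Log2 fold changes against untreated A549 with palbociclib, indisulam and the combination (bars with SE), beside the sum of the separate changes (grey, no error drawn), with stars where the interaction had an adjusted p under 0.05. For TNFAIP3 the combination reached 2.92 against a sum of 1.80, and for BIRC3 0.52 against 0.50.

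PF-06873600 for 7 days moved these genes in A549 in both directions. BIRC3 rose most firmly, to 51.2 and 51.4 CPM from 31.7 and 32.1, 1.61-fold (adjusted p = 2.59e-06). TNFAIP3 rose 1.86-fold to 4.06 and 4.204 CPM (adjusted p = 8.17e-04). RELB (1.40-fold), RELA (1.21-fold) and NFKBIZ (1.27-fold) were called higher, while NFKB2 at 44.9 and 50.1 CPM lay between and above the untreated libraries and did not pass (0.13 ± 0.10). NFKBIA, the IkB protein that frees RELA dimers when destroyed, fell to 40.1 and 39.3 CPM, 0.610-fold (log2 -0.71 ± 0.07, adjusted p = 9.11e-07), its lowest level in any group. REL was 0.631-fold at 5.51 and 6.0 CPM and NFKB1 0.877-fold at 40.6 and 41.4. In all 5 genes were higher and 3 lower, with 28.5% of all genes higher and 27.8% lower. The NFKB1 call was lost in 8 of 10 alternatives, and without any 1 of the 4 libraries, with values between -0.21 and -0.17. REL was lost without untreated replicate 2 (-0.36) or PF-06873600 replicate 1 (-0.61), and the number called lower was then 1. NFKBIZ was lost without untreated replicate 2 or either treated library (0.30 to 0.39). NFKB2 was called higher without untreated replicate 1 (0.31, adjusted p = 0.00745) and was at -0.03 without untreated replicate 2.

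The PF-06873600 and drug combination treatments share the untreated A549 libraries and differ in days of treatment, so their values are set side by side and were not compared. TNFAIP3 was at 4.06 and 4.204 CPM with PF-06873600 and at 16.7 and 17.0 with the combination. NFKB2 was at 44.9 and 50.1 CPM and at 88.9 and 86.4, and NFKBIA at 40.1 and 39.3 and at 67.9 and 63.0. BIRC3 was at 51.2 and 51.4 CPM with PF-06873600 and at 46.9 and 44.7 with the combination.

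In SUM159 the same compound at the same dose and time raised 7 of the 10 genes, including all 5 inhibitors, and lowered 1. TNFAIP3 went from 23.1 and 26.4 CPM to 208.6 and 209.5, 8.45-fold (log2 3.08 ± 0.07, adjusted p = 2.50e-14). NFKBIZ went from 4.46 and 6.33 CPM to 50.2 and 52.2, 9.51-fold (log2 3.25 ± 0.12, adjusted p = 3.95e-12). BIRC3 went from 98.1 and 92.9 CPM to 439.5 and 437.2, 4.59-fold (log2 2.198 ± 0.06, adjusted p = 2.12e-13). In each of these genes the treated libraries lay close together and far above the untreated ones. NFKBIE rose 2.76-fold to 37.2 and 35.9 CPM and NFKBIA 2.16-fold, from 74.5 and 74.3 to 162.9 and 158.3 CPM. Of the subunits, RELB rose 3.82-fold from 9.41 and 8.27 to 31.6 and 35.8 CPM (log2 1.93 ± 0.11) and NFKB2 2.54-fold from 50.8 and 50.1 to 125.2 and 130.5 (log2 1.34 ± 0.06).

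RELA and REL were not called in SUM159, and NFKB1 fell. RELA was at 108.1 and 100.02 CPM untreated and at 106.9 and 102.7 treated, with a 95% interval of the log2 change from -0.11 to 0.13. REL was at 10.5 and 10.3 against 11.3 and 12.7 CPM (0.21 ± 0.12). NFKB1 fell from 103.7 and 99.4 to 86.5 and 83.7 CPM, 0.837-fold (adjusted p = 6.96e-04), the only decrease among the 10. All 8 calls held in the 9 alternative analyses. Of all 15055 genes tested, 38.1% were higher and 35.6% lower. Among markers of other cells, the summed level of 3 endothelial markers was 11.04 to 11.65 CPM untreated and 26.9 to 29.0 treated. Nearly all of it was PECAM1 (10.9 to 27.6 CPM), with CDH5 and VWF at or below 0.946 CPM. The 4 blood cell markers summed to 10.1 to 10.8 CPM untreated and 22.0 to 23.9 treated. PTPRC was at 9.35 to 9.90 CPM untreated and 17.9 to 20.3 treated, CD14 at 0.784 to 0.877 and 3.27 to 3.88, LYZ at or below 0.234 and CD3E at 0. Their part in the result was not tested.

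The response to PF-06873600 differed between the lines for 8 of the 10 genes by a test of the difference itself, all with a positive difference (SUM159 minus A549). The change was the larger in SUM159 for 7 of them, and the exception was REL. Differences in the other direction were called for none, and among all 16707 genes tested 25.6% were higher and 27.2% lower. NFKBIA gave the clearest contrast, since it rose 2.16-fold in SUM159 and fell to 0.610-fold in A549, a log2 difference of 1.82 ± 0.09 (adjusted p = 1.67e-09). NFKBIZ differed by 2.90 ± 0.17, TNFAIP3 by 2.18 ± 0.22 and BIRC3 by 1.51 ± 0.09. NFKBIE differed by 1.42 ± 0.22, RELB by 1.45 ± 0.17 and NFKB2 by 1.21 ± 0.14. REL differed by 0.88 ± 0.24 (adjusted p = 0.00627), from a decrease in A549 and a value not called in SUM159. NFKB1 was not called, with a difference of -0.07 and a 95% interval from -0.27 to 0.14. RELA differed by -0.26 ± 0.11 (adjusted p = 0.0581) and was called lower with TMM factors (-0.32, adjusted p = 0.0245), without untreated A549 replicate 1 (-0.38) and without untreated SUM159 replicate 2 (-0.32).

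To compare genes with each other, CPM was divided by the length of all annotated exons in kilobases, which takes every annotated isoform as used. These lengths were 15.68 kb for NFKB1 and 17.13 for REL, against 3.0 for RELB. The ranks and shares of NFKB1 and REL therefore depend on the length used. On this scale RELA was the highest subunit gene in untreated A549 at 18.5 ± 2.08 CPM per kb (SD, n = 2), followed by NFKB2 at 7.80 ± 1.29, RELB at 3.50 ± 0.35, NFKB1 at 2.98 ± 0.005 and REL at 0.533 ± 0.14. Of the summed subunit level RELA held 55.5% and NFKB2 23.4%. With the combination the sum went from 33.3 ± 3.58 to 50.7 ± 1.48 CPM per kb, and the shares were 49.4% RELA, 30.9% NFKB2 and 13.2% RELB. In SUM159 the sum went from 38.1 ± 1.60 to 59.5 ± 1.05 CPM per kb with PF-06873600. There the order of the subunits changed, since NFKB2 at 22.9 ± 0.68 CPM per kb (38.5% of the sum) passed RELA at 19.2 ± 0.54 (32.3%), and RELB at 11.2 ± 0.98 (18.9%) passed NFKB1 at 5.43 ± 0.13 (9.13%). In CPM without the length NFKB1 stayed above RELB in this group, at means of 85.1 and 33.7. The same held in untreated A549, at 46.8 and 10.5. Per kb, REL was the lowest or next to lowest of the 10 genes in every group. Of its 17.13 kb, 5702 bases are shared with another gene on its strand, where reads may be left uncounted and lower this value.

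Among the inhibitor genes NFKBIA was the highest in untreated A549 at 19.2 ± 0.66 CPM per kb, 65.6% of the sum, and overlapped with RELA in level. TNFAIP3 was the lowest at 0.345 ± 0.01 CPM per kb, above 5.21% of the 13514 genes over 1 CPM. The inhibitor sum was 29.2 ± 1.1 CPM per kb in untreated A549, 36.7 ± 0.20 with indisulam, 35.9 ± 1.27 with the combination and 25.6 ± 0.12 with PF-06873600. In SUM159 it went from 44.6 ± 0.02 to 161.2 ± 1.196 CPM per kb. BIRC3 then led all 10 genes at 58.6 ± 0.22 CPM per kb, NFKBIA followed at 47.3 ± 0.96 and TNFAIP3 at 32.4 ± 0.10, and no neighbours in that order overlapped. The balance of the sums also differed, at 25.6 for inhibitors against 38.7 CPM per kb for subunits in A549 with PF-06873600. In SUM159 with the same compound it was 161.2 against 59.5. On this scale the mean inhibitor sum lay below the mean subunit sum in every A549 group and above it in both SUM159 groups. That order depends on the lengths used. Without the length, means in untreated SUM159 were 101.6 (NFKB1), 50.4 (NFKB2), 10.4 (REL), 104.04 (RELA) and 8.84 CPM (RELB). The inhibitors were at 74.4 (NFKBIA), 13.2 (NFKBIE), 5.39 (NFKBIZ), 24.8 (TNFAIP3) and 95.5 CPM (BIRC3), together below the subunits. BIRC3 made up 36.3% and NFKBIZ 5.38% of the 161.2. Because these genes do more than restrain NF-kB, the sums do not measure restraint.

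**Figure D4:**
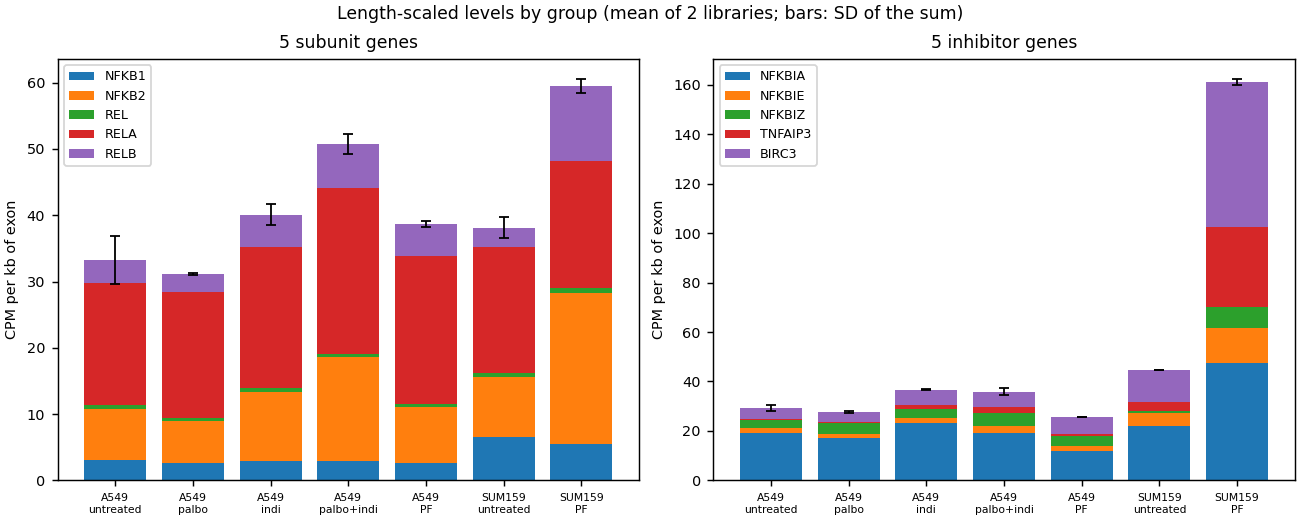
Length-scaled levels (CPM per kb of exon, linear axes from 0) of the 5 subunit genes and the 5 inhibitor genes, stacked as means of 2 libraries, with the SD of the sum as bars. The inhibitor sum is 161.2 in SUM159 with PF-06873600 and at most 44.6 in the other groups.

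The rest of the pathway was followed in 4 lists, of receptors and ligands (20 genes), kinases, adaptors and ubiquitin ligases (23), other inhibitors and IkB-like proteins (15) and other target genes (28). Their counts are descriptions, because genes silent in a line drop out at the filter and those that enter through treated cells alone had to differ, and no list was tested against another. The shares of all genes called higher and lower are repeated beside them. With palbociclib 11 of the 21 target genes tested in A549 were higher and none lower, against 8.3% and 7.4% of all genes (median log2 change 0.38, all genes -0.01). With indisulam 15 were higher and 2 lower, against 28% and 17.5% (median 0.87, all genes 0.08), and with the combination 18 were higher and none lower, against 35.1% and 30% (1.07, all genes 0.05). CXCL8, a chemokine for neutrophils, was at 6.32 and 7.00 CPM in untreated A549 and at a mean of 25.3 with palbociclib, 53.1 with indisulam and 88.5 with the combination. CCL2, a monocyte chemokine, went from a mean of 0.739 CPM to 49.1 with the combination, and PLAU, the urokinase plasminogen activator, from 129.8 to 619. With palbociclib alone these rises stood beside 9 subunit and inhibitor genes of 10 that were not called.

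The interaction was positive for 4 of the 21 target genes, negative for 8 and not called for 9 (median -0.19), beside 10.7% positive and 14.5% negative of all genes (median -0.02). Among the 10 subunits and inhibitors 4 were positive and none negative (median 0.18), and the difference between these lists was not tested. PTGS2, which makes prostaglandins, rose with indisulam from a mean of 57.5 to 189.7 CPM and was at 56.7 with the combination, 0.299-fold of its level with indisulam (adjusted p = 7.28e-11). Between the combination and indisulam 14 target genes were higher and 3 lower (22% and 23.9% of all genes), and between the combination and palbociclib 14 were higher and none lower (33.5% and 26.9%). With PF-06873600, 14 of the 21 were higher in A549 and 2 lower (28.5% and 27.8% of all genes, median 0.76), and 23 of 26 were higher in SUM159 and none lower (38.1% and 35.6%, median 3.40). The medians of the lines cover unlike sets of genes and were not compared. CXCL1 rose in SUM159 from a mean of 1.85 to 337.6 CPM, and the colony-stimulating factor CSF2 and the adhesion molecule VCAM1, at 0.459 and 0.306 CPM untreated, reached 43.6 and 22.4. At such untreated levels CSF2 and VCAM1 passed the filter on low counts only with the treated libraries. That they rose was therefore fixed by the filter, and the 23 of 26 and the median of 3.40 include them. The line difference in response (SUM159 minus A549) was positive for 17 of the 26 and negative for 5 (25.6% and 27.2% of all genes). In untreated SUM159 13 were higher and 9 lower than in A549, near the 42.8% and 36.4% of all genes.

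Upstream, TNFRSF12A, the receptor for the ligand TWEAK and an activator of the alternative pathway, rose in A549 with each treatment, from 14.7 and 15.6 CPM to a mean of 40.2 with palbociclib, 72.7 with indisulam, 177.02 with the combination and 145.6 with PF-06873600. In SUM159 it was 0.649-fold with PF-06873600, a value picked out after it was seen. In A549 IL1RAP, the shared chain of interleukin-1 receptors, was 4.52-fold and the lipopolysaccharide receptor TLR4 2.54-fold higher with the combination. With PF-06873600 in A549 they were 4.49-fold and 2.71-fold higher. TLR4 was also 1.92-fold higher with indisulam and 1.45-fold with palbociclib. In SUM159 the ligands IL1B (0.369 to 23.9 CPM) and IL1A (0.827 to 14.9) and the receptor TLR2 (11.3 to 80.1) rose with PF-06873600. IL1B passed the filter on low counts only with the treated libraries, so its rise was fixed by the filter. Of the 13 receptors and ligands tested in A549, 3 were higher with palbociclib (8.3% of all genes), 7 with indisulam (28%) and 8 with the combination (35.1%), with 1 lower in the last (30%). The combination count was 5 to 10 over the alternatives. With PF-06873600 6 were higher and 2 lower in A549 (28.5% and 27.8%), and 10 of 14 higher and 3 lower in SUM159 (38.1% and 35.6%). The 10 include IL1B. Between the combination and the separate drugs, 9 were higher and 1 lower against palbociclib (33.5% and 26.9%) and 4 higher and 3 lower against indisulam (22% and 23.9%), and 1 had a negative interaction (14.5%). The line difference was positive for 6 of 14, with 3 to 6 over the alternatives, and negative for 4 (25.6% and 27.2%), and in untreated SUM159 9 were higher and 3 lower (42.8% and 36.4%).

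Among the kinases and adaptors MAP3K14, the kinase that starts the alternative pathway, was 1.55-fold higher with indisulam (42.5 CPM), 1.94-fold with the combination (53.3) and 1.69-fold with PF-06873600 (46.4), against 27.4 in untreated A549. IKBKE, an IkB kinase-related kinase, was 1.92-fold and 1.77-fold higher with the combination and PF-06873600 in A549 and 2.95-fold higher in SUM159. Of the 23 genes tested, 2 were higher with palbociclib (8.3% of all genes), 9 higher and 3 lower with indisulam (28% and 17.5%), and 13 higher and 2 lower with the combination (35.1% and 30%). The counts of higher genes were unstable for the single drugs, at 0 to 3 over the alternatives with palbociclib and 4 to 9 with indisulam. With PF-06873600 7 were higher and 3 lower in A549 (28.5% and 27.8%), and 9 higher and 9 lower in SUM159 (median 0.01), near the 38.1% and 35.6% of all genes, and there IRAK1 and the IkB kinase subunit CHUK fell to 0.523-fold and 0.603-fold. Of the 14 other inhibitors tested, 4, 6 and 9 were higher and 0, 1 and 1 lower with palbociclib, indisulam and the combination, beside the same shares of all genes. Over the alternatives the number higher was 1 to 4 with palbociclib and 2 to 6 with indisulam. BCL3, an IkB-like coactivator, rose 1.52-fold, 2.11-fold and 2.27-fold in these, and TNIP1, a partner of TNFAIP3, rose 1.81-fold with the combination. PF-06873600 raised 5 and lowered 1 of them in A549 (28.5% and 27.8% of all genes), and raised 8 and lowered 3 in SUM159 (38.1% and 35.6%), where the RNase ZC3H12A rose 11.5-fold to 131.6 CPM. The combination had 12 kinases and adaptors and 7 other inhibitors higher than palbociclib, and 1 of each lower (33.5% and 26.9% of all genes). Against indisulam 9 and 6 were higher and 0 and 1 lower (22% and 23.9%). The interaction was positive for 3 kinases and adaptors, with 1 to 7 over the alternatives, and for 4 other inhibitors, and negative for 2 of the latter (10.7% and 14.5%). The line difference was positive for 4 kinases and adaptors and 6 other inhibitors and negative for 6 and 4 (25.6% and 27.2%), and the last of these counts was 2 to 4 over the alternatives. Untreated SUM159 had 10 and 7 higher and 6 and 3 lower (42.8% and 36.4%).

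**Figure D5:**
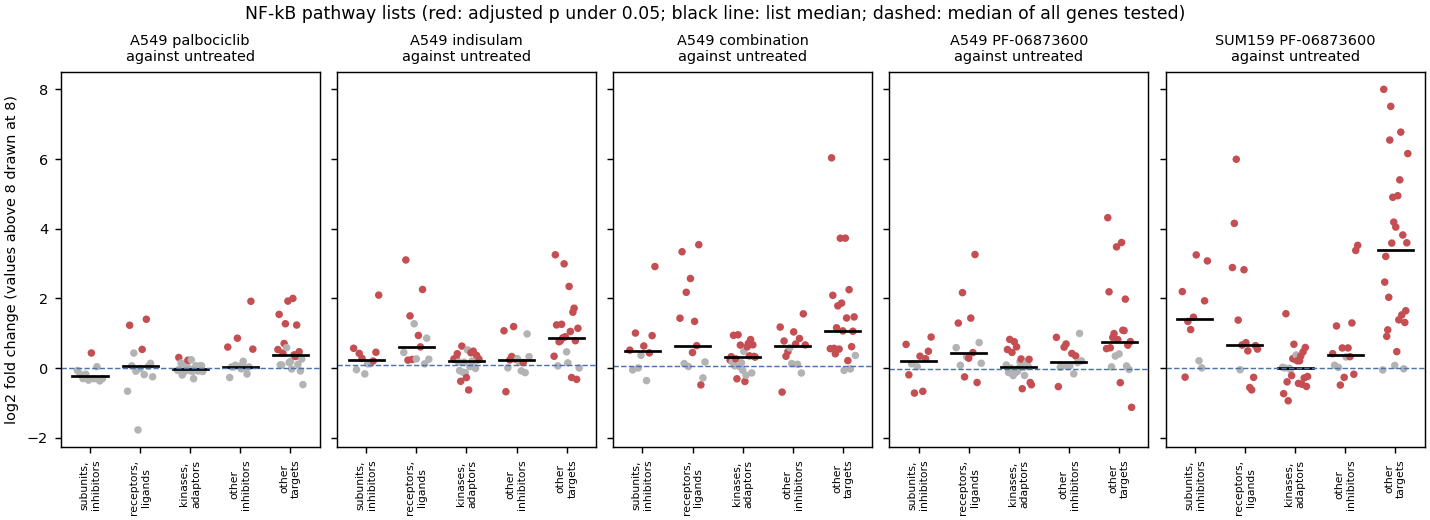
Log2 fold changes against untreated cells (points, red where the adjusted p was under 0.05) of the 10 subunit and inhibitor genes and 4 pathway lists, with list medians (black lines) and the median of all genes tested (dashed), in 5 comparisons. One axis serves all panels, and values above 8 are drawn at 8. The median of the target list is 1.07 with the combination in A549 (21 genes) and 3.40 with PF-06873600 in SUM159 (26 genes), over unlike sets of genes. The SUM159 set includes CSF2 and VCAM1, whose rise was fixed by the filter.

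Exons of 5 of the 10 genes overlap another gene. The overlap with a gene on the other strand was 103 bases for RELA (RELA-DT), 95 for TNFAIP3 (WAKMAR2) and 126 for BIRC3, and those genes reached at most 5.64, 5.38 and 0.760 CPM. NFKBIZ shares 194 bases of exon on its own strand with NXPE3, which reached 114.85 CPM. REL shares 5702 bases on its own strand with a gene that had no counts, which does not show that gene to be silent, since shared reads are not counted. Reads that fit more than 1 gene were left uncounted as ambiguous, 2.49% to 2.85% in the libraries, so overlaps on the same strand can lower a count. For RELA, TNFAIP3 and BIRC3 this holds only if reads were counted without regard to strand, and the strand setting is not given.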

How the data were processed

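The authors sequenced RNA of the A549 and SUM159 lines as stranded, polyadenylated, single-end libraries, 14 in all in 7 groups of 2. The deposited files hold raw read counts per gene, with no normalization and replicates apart, for 60683 Ensembl identifiers, of which 60370 matched GENCODE release 44. The submitters' processing notes name HISAT2 2.2.1, HTSeq and GRCh38. The annotation release and strand setting are not given in the sources used here. Summary lines of reads counted on no gene stayed out of totals: low mapping quality was 7.32% to 8.89%, no gene 3.19% to 5.07% and ambiguous 2.49% to 2.85% of reads. Depth was 13060374 to 21149256 counts, and limits from counts cover counting error only, since reads carry no molecular identifiers.

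CPM used the total of gene counts, after the total size factor in the study's methods. edgeR 4.0.16 (R 4.3.3) with filterByExpr and the quasi-likelihood F test was fitted over all genes, p-values adjusted by Benjamini-Hochberg and called under 0.05, in a model of 10 A549 libraries, a model of 4 SUM159 libraries and a model of 8 libraries for tests between lines. Standard errors are the absolute log2 change over the square root of F. An exact permutation test of 2 against 2 cannot go below p = 0.33. The 10 genes were all named. From each pathway list, at most the 3 genes with the largest change per comparison were open to naming, if called, at 10 CPM or more and without overlap between groups. The genes and lists were chosen with earlier results of these data known. SOD2 of the target list was not matched and not used here. A marker of the blood cell list is not reported here. Alternatives were TMM factors, DESeq2 1.42.0, no filter, a mean of at least 50 counts, the compared groups alone, the replicate number as a block and each library left out in turn. Scripts were tested on simulated data. Promoter windows came from RefSeq, and proteins were not analysed here. Python was 3.11.15.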

Additional observations from a re-analysis of the deposited data

Results flagged for a closer look

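The difference between SUM159 and A549 in the log2 response to PF-06873600 passed a test of the difference itself for 8 of the 10 genes, each with a positive difference. The change was the larger in SUM159 for 7 of them, all except REL. The values (SUM159 minus A549) were 1.21 for NFKB2, 0.88 for REL, 1.45 for RELB, 1.82 for NFKBIA, 1.42 for NFKBIE, 2.90 for NFKBIZ, 2.18 for TNFAIP3 and 1.51 for BIRC3. All 8 stayed past the threshold in the 13 alternative analyses. NFKBIA moved in opposite directions in the lines, and REL fell in A549 without a call in SUM159. Line, medium and additives differed together and cannot be told apart.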

How the results depend on the processing

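Of the log2 changes of the 10 genes under the alternatives, 967 kept their direction and side of the threshold, 55 lost a call, 19 gained one and 29 changed sign, the last all in values that were not called. All 8 calls with PF-06873600 in SUM159 and all 8 line differences held in every alternative run. With the compared groups alone 0 genes were higher with palbociclib. With no filter, and with crossed replicate numbers as a block (added after seeing the data), 1 was lower there, NFKB2. DESeq2 left 3 higher with indisulam and 1 lower between the combination and indisulam. The line difference had 1 lower gene, RELA, with TMM factors and with the replicate block. The cause of these changes was not tested.

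With each library left out in turn, the number of genes higher and lower ran from 0 to 1 and 0 to 2 with palbociclib, 0 to 1 lower with the combination, 3 to 5 and 0 to 1 between the combination and indisulam, 1 to 2 lower with PF-06873600 in A549, 0 to 1 lower for the line difference and 1 to 2 lower between untreated lines. Uncalled values that changed sign ran from -0.59 to 0.0047 (REL) and -0.0678 to 0.16 (RELA) with palbociclib, and from -0.34 to 0.0402 (NFKBIE) and -0.12 to 0.43 (REL) with indisulam. With the combination they ran from -0.0982 to 0.0005 (NFKB1) and -0.0471 to 0.0613 (NFKBIA, also -0.0774 with TMM factors and -0.0299 with DESeq2), against palbociclib from -0.0198 to 0.49 (NFKBIZ) and -0.27 to 0.23 (REL), and against indisulam from -0.12 to 0.0264 (BIRC3) and -0.0567 to 0.0421 (NFKB1, 0.0267 with DESeq2). The interaction ran from -0.0580 to 0.0933 (BIRC3), -0.15 to 0.36 (NFKBIZ) and -0.49 to 0.10 (REL). With PF-06873600 they ran from -0.0293 to 0.31 (NFKB2) and -0.21 to 0.25 (NFKBIE) in A549 and -0.0453 to 0.0664 (RELA) in SUM159, and between untreated lines from -0.0655 to 0.49 (REL) and -0.0635 to 0.17 (RELA, -0.0685 with DESeq2). A library left out leaves its group with 1, taken to vary like the others.

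Replicate numbers did not pair the samples (same-number correlations -0.19 to 0.14), and the replicate block changed no other call of these genes. Over all genes palbociclib had 1310 higher and 1168 lower, against 543 and 406 with the compared groups alone and 967 and 617 with DESeq2, and indisulam 4420 higher against 2742 with DESeq2. The pathway lists were recomputed as an alternative chosen after seeing the data, in which 0 of 939 values of named genes changed sign and 19 lost their call.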
